A study of Mus musculus with 8 samples.

Results

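The genes described here encode Polycomb proteins, DNA methyltransferases and TET enzymes, histone demethylases, and other histone modifiers that can silence genes or undo silencing. They were chosen by name, 41 in all, and 37 of them had at least 1 probe set that the array annotation assigns to that gene alone, among 17097 genes tested. The 4 others, Cbx8, Tet1, Kdm6b and Hdac3, were not analysed here. Setd8 is listed on the array under its newer symbol Kmt5a. Expression was measured on 8 Affymetrix arrays of bulge cells, the stem cell compartment of the hair follicle, taken from mouse back skin. The 4 arrays labelled G9a cKO are of animals with a conditional knockout of G9a, and the 4 labelled G9a WT are the comparison group. Each array was taken as 1 animal. All 8 animals had received the mutagen DMBA (0.25 mg/ml) and the tumour promoter TPA (0.02 mg/ml), 200 µl of each in acetone, once a week for 6 weeks from 8 weeks of age, and are labelled as 15 weeks old. No untreated skin enters the comparison, so both groups share the carcinogen treatment. The sources used here do not state what drives the deletion, which part of the gene it removes or how the bulge cells were isolated.

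G9a, encoded by Ehmt2, places mono- and dimethyl groups on H3K9 (a lysine of histone H3), a mark of silent chromatin. Polycomb proteins silence genes by another route. Polycomb repressive complex 2 (PRC2) methylates H3K27, another lysine of that histone, and Polycomb repressive complex 1 (PRC1) binds that mark and ubiquitylates histone H2A. DNA methyltransferases add methyl groups to cytosines, TET enzymes oxidise them, and histone demethylases remove methyl groups from histones. The comparison asked whether the transcripts of these other systems differ between bulge cells of the cKO and WT animals.

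The arrays gave log2 signals that lay between 3.09 and 13.1, with array medians of 5.87 to 5.95. Of the 12 bulge and basal follicle markers fixed for this tissue, 12 read above the array median on all 8 arrays, Cd34, Lgr5 and Krt15 among them. Above that median on all 8 arrays were 0 of 7 macrophage, 0 of 5 endothelial, 0 of 4 muscle and 0 of 3 adipocyte markers, 1 of 6 fibroblast, 2 of 6 T cell, 4 of 6 melanocyte, 4 of 6 Langerhans or dendritic cell, 4 of 6 differentiated epidermis, 3 of 5 sebaceous gland and 1 of 2 erythroid markers. Ehmt2 probe set 1460692_PM_at read 6.44, 5.54, 5.80 and 5.64 in the cKO arrays and 9.29, 8.89, 8.93 and 9.15 in the WT arrays, a 9.27-fold lower signal (limma adjusted p over all probe sets = 6.64e-05; exact permutation p = 0.0286, the smallest that 4 against 4 arrays allow). The second Ehmt2 probe set, 1426888_PM_at, did not separate the groups, at 8.41 ± 0.02 and 8.41 ± 0.01 (SD, n = 4 each). Being the brighter on average, this probe set stood for Ehmt2 in the fit over genes, which did not call the targeted gene. For Ehmt1, which encodes the partner enzyme GLP, the means were 9.18 ± 0.09 (cKO) and 9.17 ± 0.07 (WT), with a limma adjusted p over all probe sets of 0.990.

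None of the 37 chromatin genes passed the threshold in either direction, an adjusted p under 0.05 in a limma fit across all genes, which 2.76% of all genes passed (329 higher and 143 lower in cKO). At an unadjusted p under 0.05 there were 7 of the 37 (18.9%), 3 higher and 4 lower in cKO, against 13.7% of all genes. The size of the differences was also near that of the array as a whole: the median absolute log2 change was 0.057 over the 37 genes and 0.052 over all genes. In sign they divided evenly, 18 above and 19 below 0, with a median of -0.0059 beside 0.0027 for all genes. The genotypes had no overlap in their array values for 3 of the 37 genes (8.11%), namely Cbx7, Jarid2 and Trim28, and 8.24% of all genes had such groups. These shares lay near the background. In bulk samples, fewer cells of a type and less RNA per cell cannot be told apart for any of these genes. Among the cell type markers, 1 of differentiated epidermis and 1 of T cells were called higher in cKO. Of the fibroblast markers, 1 was called lower, and the other marker lists held no called gene. The fibroblast list mean lay at 4.7537 to 4.8872 in cKO and 4.9127 to 4.9952 in WT, below every array median. The means of the other marker lists overlapped between genotypes. Whether the cell mixture differed was not tested. The all-gene counts moved when 1 array was left out, which also leaves fewer arrays for the test. Without WT replicate 4 there were 502 higher and 294 lower, without cKO replicate 2 there were 190 and 68, and without WT replicate 3 there were 195 and 67. Genes called lower numbered 74, 71 and 78 without cKO replicate 3, cKO replicate 4 and WT replicate 1. In the fits without 1 array, the number of the 37 genes past the threshold was 0 except without WT replicate 4, where Sirt1 was called lower.

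**Figure D1:**
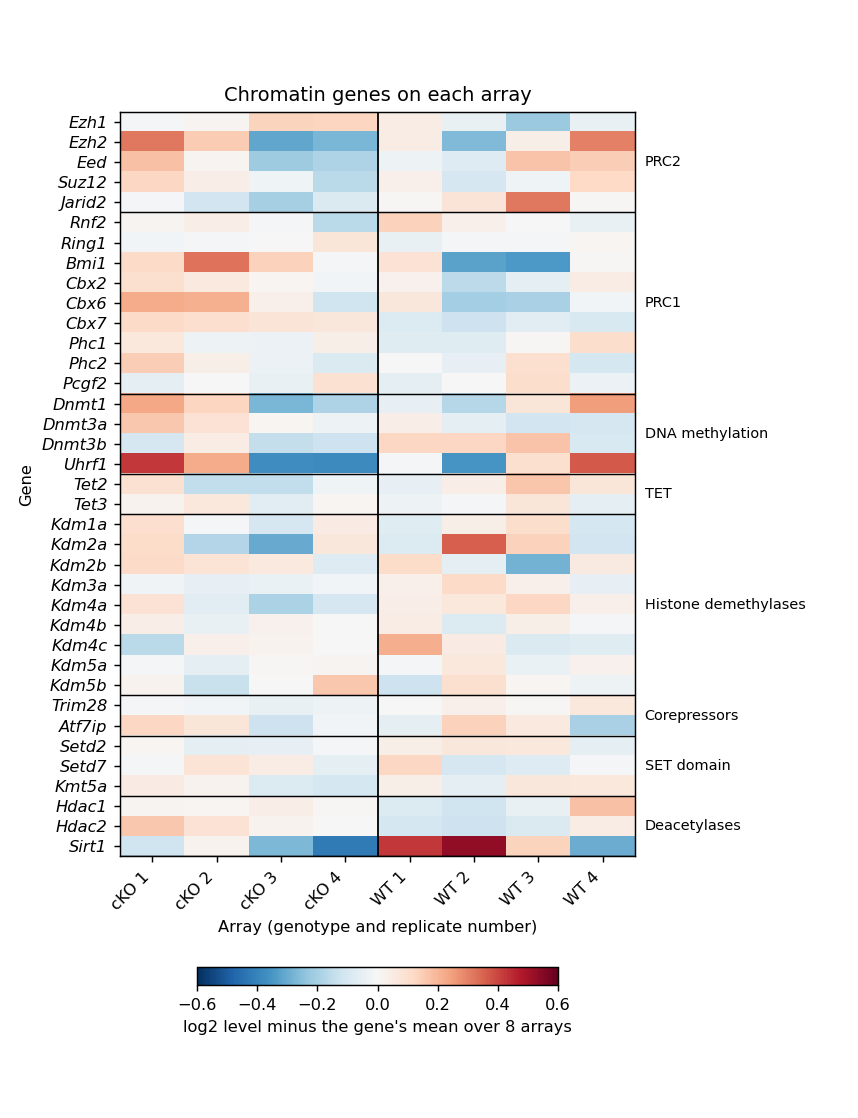
Each row is 1 of the 37 measured genes, grouped by role, and each column 1 array; colour gives the log2 level minus the mean of that gene over the 8 arrays. The black vertical line separates the 4 cKO from the 4 WT arrays: Cbx7 is the row whose colours divide most cleanly at it, while Ezh2, Dnmt1 and Uhrf1 are high in cKO replicate 1 and WT replicate 4 alike.

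A p that misses a threshold does not show that 2 groups are alike, so the interval of each difference was read as well. The 95% confidence interval of the fit, taken gene by gene without adjustment for their number, stayed within 1.5-fold in both directions for 36 of the 37 genes. Sirt1 was the exception. The change itself was under 1.1-fold for 30 genes. Bmi1 had the largest positive change, 1.22-fold, and Sirt1 the largest negative one, 1.32-fold. RMA compresses differences of dim probe sets, which concerns Dnmt3b and Kdm4a, the 2 genes within the dimmest 40% of those tested. Phc1, at 5.66 to 5.84, lay just above that cut and below every array median, so its narrow interval calls for the same caution.

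**Figure D2:**
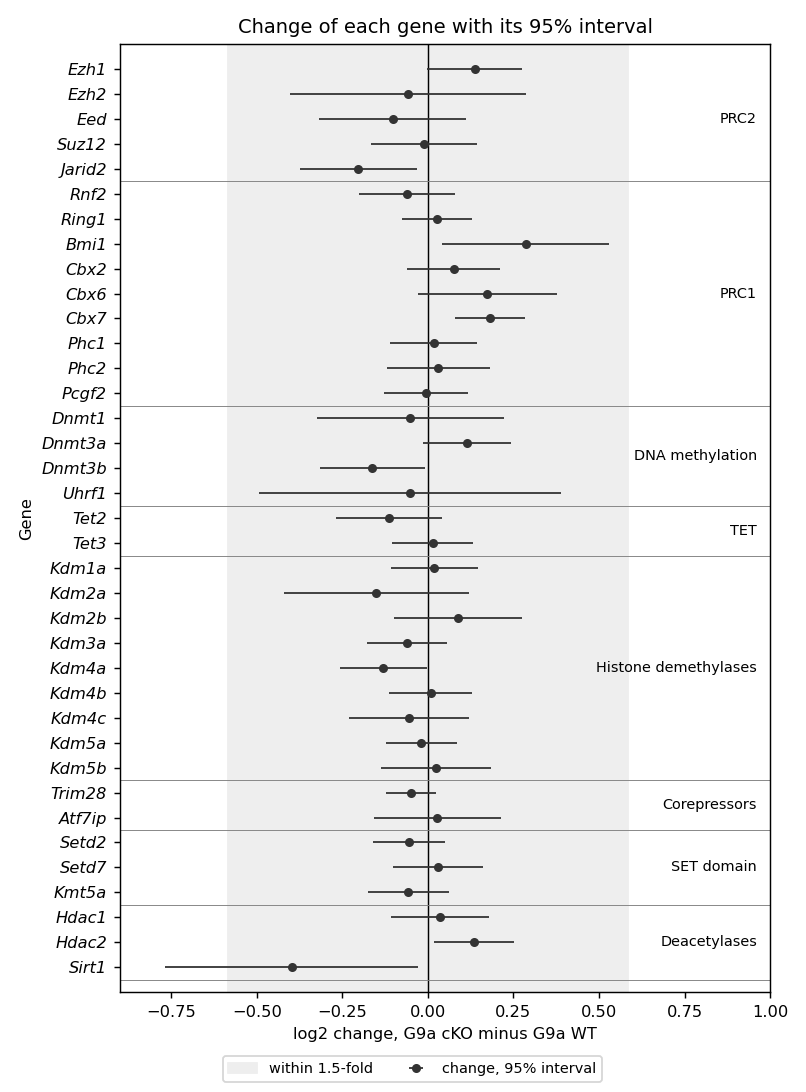
The horizontal axis gives the log2 change, cKO minus WT, of each of the 37 genes on the vertical axis; points are the limma estimates, bars their 95% intervals, and the grey band spans 1.5-fold in both directions. The bar of Sirt1, from -0.77 to -0.03, is the only one that leaves the band.

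In PRC2, 4 of the 5 genes lay below 0 and 1 above, and none was called. Jarid2, a DNA-binding accessory subunit that helps recruit the complex, read 8.37, 8.27, 8.18 and 8.29 in the cKO arrays and 8.39, 8.46, 8.69 and 8.39 in the WT arrays. Every cKO array lay below every WT array, though the gap between the groups was narrow. The log2 change of Jarid2 was -0.20 (SE 0.08, 95% interval -0.37 to -0.03, limma adjusted p = 0.253). Its second probe set, 1422698_PM_s_at, had the lowest adjusted p among all probe sets of these genes, with cKO arrays at 7.97 to 8.12 and WT arrays at 8.21 to 8.33 (log2 change -0.25, limma adjusted p over all probe sets = 0.0684). Its dimmest probe set, 1422697_PM_s_at, changed by -0.03. Ezh1, one of the 2 alternative methyltransferase subunits and the one associated with resting cells, read 9.91, 9.93, 10.05 and 10.04 in cKO and 9.96, 9.87, 9.69 and 9.87 in WT. WT replicate 1 lay within the cKO range, so the groups overlapped (log2 change 0.14, 95% interval -0.0015 to 0.27, limma adjusted p = 0.372). All 4 probe sets of Ezh1 had a positive change, from 0.04 to 0.14. Eed, the subunit that binds methylated H3K27, read 8.24, 8.09, 7.85 and 7.88 in cKO and 8.04, 7.99, 8.24 and 8.21 in WT, with wide overlap (log2 change -0.10, limma adjusted p = 0.741). Ezh2, the methyltransferase of dividing cells, changed by -0.06 with a 95% interval of -0.40 to 0.29, and Suz12, the scaffold subunit, by -0.01 with an interval of -0.17 to 0.14. The 6 probe sets of Suz12 ran from -0.01 to 0.07 and thus did not share a sign.

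Among the 9 measured PRC1 genes, 7 lay above and 2 below 0. Cbx7, a chromodomain subunit that reads methylated H3K27, had the lowest adjusted p of all 37 genes. It read 8.37, 8.35, 8.33 and 8.32 in the cKO arrays and 8.17, 8.13, 8.19 and 8.16 in the WT arrays. The groups did not overlap, and within each genotype the arrays lay very close together. The log2 change of 0.18, or 1.13-fold (SE 0.05, 95% interval 0.08 to 0.28), had a limma adjusted p of 0.0764. It passed in 1 alternative, eBayes without a mean-variance trend (adjusted p = 0.0323), and over all alternatives the adjusted p ran from 0.0323 to 0.429 while the change stayed between 0.17 and 0.19. A second probe set, 1449713_PM_at, also had 4 cKO arrays (7.98 to 8.07) above 4 WT arrays (7.74 to 7.89), and so did 1433557_PM_at, by a narrow gap (6.57 to 6.69 against 6.45 to 6.56). Bmi1, a PCGF subunit of canonical PRC1 and a stem cell self-renewal factor, read 7.84, 8.05, 7.86 and 7.71 in cKO and 7.81, 7.40, 7.38 and 7.73 in WT. WT replicates 1 and 4 lay among the cKO arrays, and the lower mean of the WT group came from replicates 2 and 3 (log2 change 0.29, SE 0.11, 95% interval 0.04 to 0.53, limma adjusted p = 0.268). The second Bmi1 probe set, 1417493_PM_at, changed by 0.08. Cbx6, another chromodomain subunit, read 8.96, 8.96, 8.77 and 8.62 in cKO and 8.81, 8.54, 8.55 and 8.73 in WT (log2 change 0.17, limma adjusted p = 0.461). The ubiquitin ligase genes Ring1 and Rnf2 changed by 0.03 and -0.06, and the chromodomain gene Cbx2 by 0.07. The polyhomeotic genes Phc1 and Phc2 changed by 0.02 and 0.03 and the PCGF gene Pcgf2 by -0.0059. For these 6 genes the adjusted p was 0.698 or higher. The 2 probe sets of Pcgf2 differed in sign, at -0.0059 and 0.08.

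**Figure D3:**
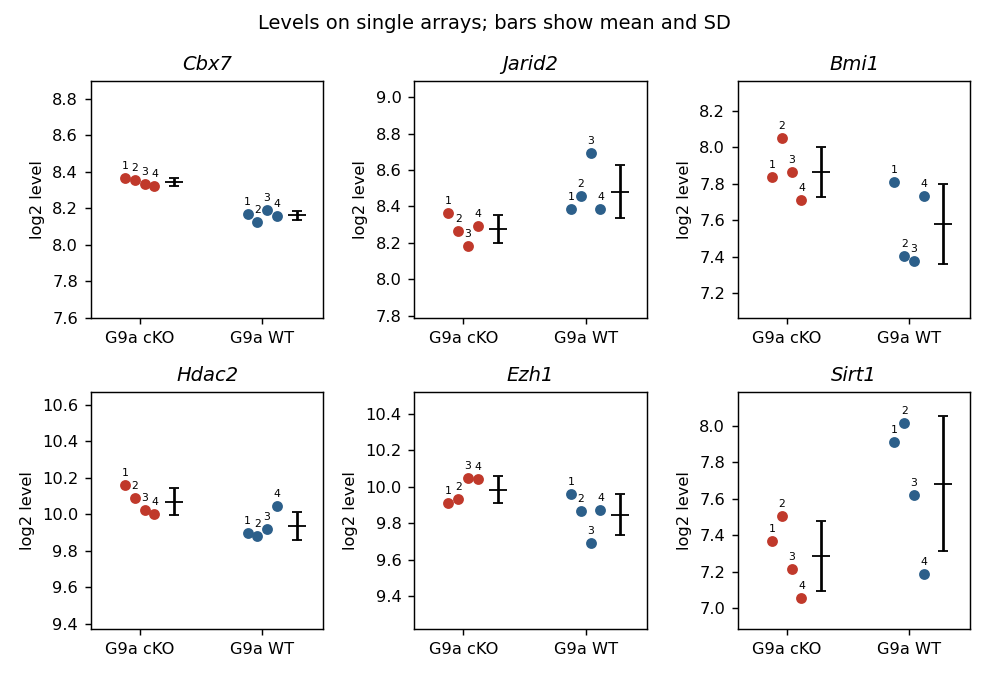
Log2 levels of Cbx7, Jarid2, Bmi1, Hdac2, Ezh1 and Sirt1 on the 4 cKO arrays (red) and 4 WT arrays (blue), each point 1 array numbered by its replicate, with mean and SD in black; every panel spans the same 1.3 log2 units. Only the points of Cbx7 and Jarid2 leave a gap between genotypes, and Sirt1 in WT replicate 4 lies among the cKO arrays.

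Among the 4 DNA methylation genes, the de novo and the maintenance machinery showed different spreads. Dnmt3a, a de novo methyltransferase with a known role in epidermal stem cells, read 9.31, 9.24, 9.16 and 9.12 in cKO and 9.19, 9.10, 9.04 and 9.05 in WT (log2 change 0.11, 95% interval -0.01 to 0.24, limma adjusted p = 0.432). Its 5 probe sets all had positive changes, from 0.05 to 0.12. Dnmt3b, the other de novo enzyme, read 5.21, 5.36, 5.17 and 5.19 in cKO and 5.44, 5.43, 5.48 and 5.22 in WT, where WT replicate 4 lay with the cKO arrays (log2 change -0.16, 95% interval -0.32 to -0.01, limma adjusted p = 0.326). With the mean of 23 immediate early genes, a class induced quickly when cells are stimulated, as a covariate, the Dnmt3b change was 0.014. That was smaller than its SE of 0.08, so no direction was resolved. Neither gene separated the genotypes. The maintenance methyltransferase gene Dnmt1 read 8.89, 8.78, 8.38 and 8.47 in cKO and 8.61, 8.48, 8.73 and 8.90 in WT. Uhrf1, which encodes the protein that brings DNMT1 to newly replicated DNA, read 9.53, 9.32, 8.73 and 8.72 in cKO and 9.09, 8.75, 9.19 and 9.47 in WT. In both genes the highest arrays were cKO replicates 1 and 2 and WT replicates 3 and 4, so that animals of 1 genotype differed more than the genotypes did. Uhrf1 spanned 1.75-fold over the 8 arrays against a genotype change of -0.05 (95% interval -0.49 to 0.39, limma adjusted p = 0.962). Dnmt1 spanned 1.44-fold against a change of -0.05 (95% interval -0.32 to 0.22, limma adjusted p = 0.936). The second Uhrf1 probe set, 1415811_PM_at, had its highest values in WT replicate 4 and cKO replicate 1 as well, at 8.57 and 8.49.

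Ezh2 varied among the animals in a similar way, at 8.33, 8.17, 7.70 and 7.74 in cKO and 8.06, 7.75, 8.05 and 8.32 in WT, a span of 1.54-fold. So did the mean of 29 proliferation genes that contained none of the 37. Expressed as the deviation from each gene's mean, that list mean was 0.44, 0.16, -0.34 and -0.29 in the cKO arrays and -0.20, -0.34, 0.08 and 0.50 in the WT arrays. Over the 8 arrays the list mean correlated with Dnmt1 at r = 0.972 (exact permutation p = 7.44e-05, adjusted over the 37 genes 0.00275) and rho = 0.976 (exact permutation p = 0.000397, adjusted 0.0147). For Ezh2 the values were r = 0.946 (exact permutation p = 0.000422, adjusted 0.0052) and rho = 0.929 (exact permutation p = 0.00223, adjusted 0.0413). For Uhrf1 they were r = 0.959 (exact permutation p = 0.000273, adjusted 0.00505) and rho = 0.905 (exact permutation p = 0.00456, adjusted 0.0563). Without cKO replicate 1 and WT replicate 4, the 2 arrays farthest from the median of the list mean, r was 0.964 for Dnmt1, 0.894 for Ezh2 and 0.944 for Uhrf1. With 4 arrays each, the genotypes were too small for a correlation of their own. After removal of the genotype means, r was 0.977, 0.950 and 0.960 for Dnmt1, Ezh2 and Uhrf1. These 3 genes were not alone, as r was then 0.967 for Hdac2 and 0.92 for Eed. For Hdac2, r over the 8 arrays was 0.640 (adjusted exact permutation p = 0.323). In r over the 8 arrays, Eed (r = 0.872) and Suz12 (r = 0.842) came next after the 3 genes, both at an adjusted exact permutation p of 0.0716. Of the 37 relations tested, 3 had an adjusted p under 0.05 by r and 2 of these also by rho. With the list mean as a covariate the standard error of the genotype change dropped from 0.20 to 0.07 for Uhrf1, from 0.15 to 0.07 for Ezh2 and from 0.12 to 0.05 for Dnmt1. The changes were then -0.03, -0.04 and -0.04, and none passed the threshold (limma adjusted p = 0.898, 0.844 and 0.790; over all alternatives 0.680 to 0.993, 0.649 to 0.987 and 0.661 to 0.997).

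**Figure D4:**
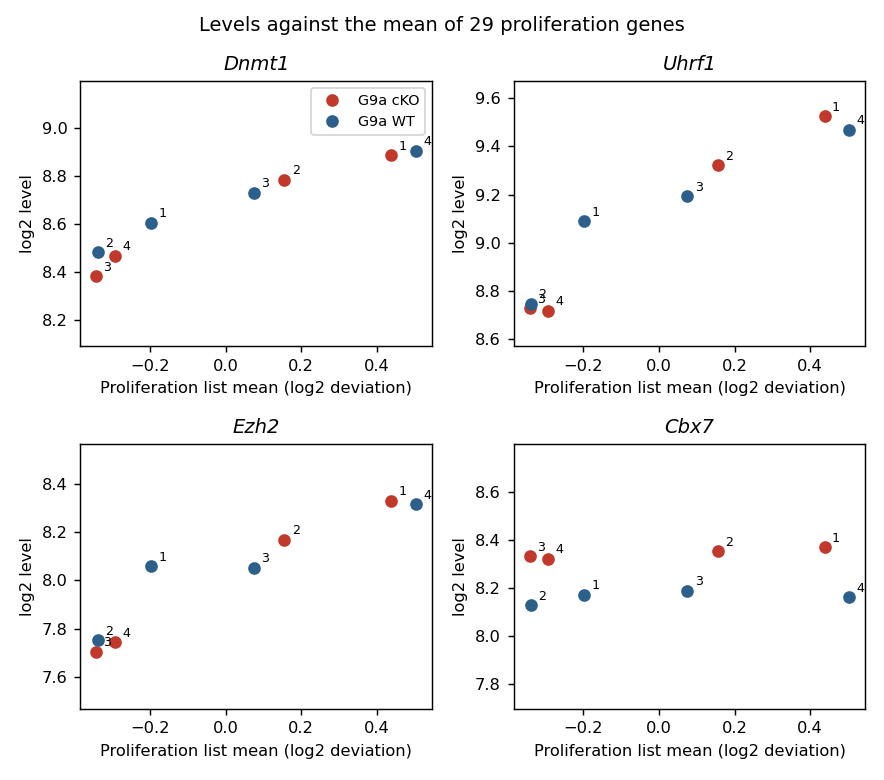
Each point is 1 array (red cKO, blue WT, numbered by replicate), placed by the mean log2 deviation of 29 proliferation genes on the horizontal axis and by the log2 level of Dnmt1, Uhrf1, Ezh2 or Cbx7 on the vertical axis. Arrays of both genotypes lie along 1 rising line for Dnmt1, Uhrf1 and Ezh2, while Cbx7 (r = 0.109) instead forms a cKO row above a WT row.

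Genes of DNA replication are known to be switched on by E2F factors, whose core site reads TTT, then 2 letters that are each C or G, then CGC. Because Dnmt1, Uhrf1 and Ezh2 varied with the proliferation genes, promoter windows of 300 bases (250 before and 50 after the annotated start, from RefSeq on GRCm38.p6) were searched on both strands for the 4 words TTTCCCGC, TTTCGCGC, TTTGCCGC and TTTGGCGC. This search was chosen after the expression values were seen. Windows were at hand for 32 of the 37 genes, 48 windows in all. The word was present in windows of 4 genes, Dnmt1, Ezh2, Suz12 and Uhrf1 (4 of 48 windows, 8.33%), and in 2.26% of all 32851 windows. A match is a string of letters and not a measured binding site, and its part in the variation was not tested. All 4 words contain a CpG pair, and the member windows were rich in CpG pairs. Their median was 26 per window beside 7 over all windows, and they ranged from 0 to 57. The shares of 8.33% and 2.26% were not matched for CpG content, and enrichment of the word was not tested. Stretches of the 4 windows are printed 5′ to 3′ because 3 of them belong to the genes with the highest r over the 8 arrays. Capitals mark the E2F word or its reverse complement. The Dnmt1 stretch is chr9:20952624-20952873 (minus strand), from the only one of its 3 windows with a word. The word is there as the reverse complement, 219 to 212 bases before the annotated start of that window. The same window holds a second word 34 to 41 bases after that start, which is not printed. Positions in each stretch count from the start of its own window. Which start bulge cells use was not tested, so part of a printed stretch may itself be transcribed. The Uhrf1 stretch is chr17:56304063-56304312 (plus strand, 1 of 2 windows, word 185 to 178 bases before the start). The Ezh2 stretch is chr6:47595020-47595280 (minus strand, word on bases 4 to 11 counted from 1 at the start), and the Suz12 stretch is chr11:79992856-79993105 (plus strand, word 219 to 212 bases before the start).
Dnmt1: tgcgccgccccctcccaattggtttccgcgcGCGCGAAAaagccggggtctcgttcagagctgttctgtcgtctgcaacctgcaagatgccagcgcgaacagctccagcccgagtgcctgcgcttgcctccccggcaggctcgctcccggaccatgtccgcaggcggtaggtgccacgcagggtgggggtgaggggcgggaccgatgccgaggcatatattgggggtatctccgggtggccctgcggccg
Uhrf1: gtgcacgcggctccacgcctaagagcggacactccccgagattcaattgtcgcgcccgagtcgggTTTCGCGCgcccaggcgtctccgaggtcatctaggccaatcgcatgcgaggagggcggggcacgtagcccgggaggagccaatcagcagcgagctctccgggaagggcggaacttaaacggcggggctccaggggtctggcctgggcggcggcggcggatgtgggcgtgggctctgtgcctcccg
Ezh2: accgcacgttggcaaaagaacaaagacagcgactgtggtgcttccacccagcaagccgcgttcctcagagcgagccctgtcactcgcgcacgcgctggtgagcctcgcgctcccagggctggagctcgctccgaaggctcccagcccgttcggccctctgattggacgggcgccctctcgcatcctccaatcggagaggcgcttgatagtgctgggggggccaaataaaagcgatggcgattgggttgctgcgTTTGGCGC
Suz12: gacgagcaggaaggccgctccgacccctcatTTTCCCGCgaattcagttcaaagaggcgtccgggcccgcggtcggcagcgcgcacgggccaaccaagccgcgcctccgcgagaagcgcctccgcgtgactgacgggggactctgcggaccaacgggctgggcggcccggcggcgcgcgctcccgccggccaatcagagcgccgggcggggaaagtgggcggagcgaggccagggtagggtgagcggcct

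The 2 measured TET genes did not separate the genotypes. Tet2 read 8.75, 8.51, 8.51 and 8.63 in cKO and 8.61, 8.70, 8.83 and 8.73 in WT (log2 change -0.11, 95% interval -0.27 to 0.04, limma adjusted p = 0.555), and its second probe set changed by -0.17. Tet3 read 8.23, 8.27, 8.15 and 8.22 in cKO and 8.18, 8.20, 8.28 and 8.15 in WT (log2 change 0.01, 95% interval -0.10 to 0.13, limma adjusted p = 0.962). Both enzymes oxidise 5-methylcytosine, the first step of active DNA demethylation.

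Among the 9 measured histone demethylase genes, 4 lay above and 5 below 0, and changes ran from -0.15 to 0.09. Kdm4a, which encodes a demethylase of trimethylated H3K9 and H3K36, read 4.63, 4.48, 4.36 and 4.45 in cKO and 4.58, 4.61, 4.67 and 4.58 in WT. These signals lay near the bottom of the scale, and cKO replicate 1 lay within the WT range (log2 change -0.13, 95% interval -0.26 to -0.0025, limma adjusted p = 0.352). Kdm2a, an H3K36 demethylase that binds CpG islands, read 6.25, 5.97, 5.85 and 6.21 in cKO and 6.06, 6.51, 6.29 and 6.03 in WT (log2 change -0.15, limma adjusted p = 0.690). With the immediate early covariate the Kdm2a change was 0.047, with an SE of 0.17. Kdm3a, a demethylase of the mono- and dimethyl H3K9 marks that G9a places, read 7.81, 7.78, 7.79 and 7.81 in cKO and 7.86, 7.94, 7.86 and 7.78 in WT (log2 change -0.06, 95% interval -0.18 to 0.05, limma adjusted p = 0.709). For Kdm3a the change with the immediate early covariate was 0.013, with an SE of 0.07. Its cKO arrays lay closely together and WT replicate 4 lay with them. The other H3K9 demethylase genes Kdm4b and Kdm4c changed by 0.0078 (95% interval -0.11 to 0.13) and -0.06 (-0.23 to 0.12). Kdm1a, the gene of LSD1, a flavin-dependent demethylase of H3K4 and a partner of histone deacetylases, changed by 0.02 with a 95% interval of -0.11 to 0.15. The H3K4 demethylase genes Kdm5a and Kdm5b changed by -0.02 (-0.12 to 0.09) and 0.02 (-0.14 to 0.18), and Kdm2b, which links PRC1 to CpG islands, by 0.09 (-0.10 to 0.27). Probe sets of 1 gene differed in sign for Kdm1a (-0.09 and 0.02), Kdm5a (-0.04 to 0.03) and Kdm5b (-0.03 and 0.02), with none of them past the threshold.

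The corepressor Trim28, a scaffold that brings H3K9 methyltransferases to targets of zinc finger proteins, had the narrowest interval of the 37 genes. It read 10.77, 10.76, 10.74 and 10.75 in cKO and 10.78, 10.81, 10.79 and 10.84 in WT. The groups did not overlap, yet the change was -0.05, with a 95% interval of -0.12 to 0.02 (limma adjusted p = 0.583), and the second Trim28 probe set changed by -0.01. Atf7ip, which stabilises the H3K9 methyltransferase SETDB1, read 7.66, 7.61, 7.41 and 7.52 in cKO and 7.48, 7.67, 7.59 and 7.34 in WT (log2 change 0.03, limma adjusted p = 0.950).

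Levels of the 3 SET domain genes overlapped between genotypes. Setd2, which encodes an enzyme that trimethylates H3K36, read 9.16, 9.09, 9.10 and 9.14 in cKO and 9.18, 9.21, 9.21 and 9.10 in WT (log2 change -0.06, 95% interval -0.16 to 0.05). With the immediate early covariate the Setd2 change was 0.010, with an SE of 0.06. Setd7, an H3K4 monomethyltransferase gene, read 9.36, 9.44, 9.41 and 9.30 in cKO and 9.49, 9.26, 9.29 and 9.35 in WT (log2 change 0.03, -0.10 to 0.16). Setd8 (Kmt5a), which encodes the H4K20 monomethyltransferase, read 9.45, 9.42, 9.31 and 9.29 in cKO and 9.43, 9.34, 9.46 and 9.46 in WT (log2 change -0.06, -0.17 to 0.06). The limma adjusted p of the 3 genes was 0.710 or higher.

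Of the 3 measured deacetylase genes, Sirt1 had the largest and least certain difference. Sirt1, an NAD-dependent deacetylase, read 7.37, 7.51, 7.21 and 7.06 in the cKO arrays and 7.91, 8.02, 7.62 and 7.19 in the WT arrays. WT replicates 1 to 3 lay above all cKO arrays, and WT replicate 4 lay below 3 of them. The log2 change was -0.40, or 1.32-fold lower (SE 0.17, 95% interval -0.77 to -0.03, limma adjusted p = 0.319). With the replicate number as a block the change was again -0.40, with a smaller SE of 0.09 (limma adjusted p = 0.0898). The replicate numbers were not taken to pair animals, so the smaller SE does not make the Sirt1 difference firmer. Without WT replicate 4 the change was -0.56 and past the threshold (limma adjusted p = 0.0313, and over all alternatives 0.0313 to 0.665). The 23 immediate early genes divided the arrays in the same way. The mean deviation of this list was 0.29, 0.38 and 0.22 in WT replicates 1 to 3, -0.17 in WT replicate 4 and -0.26 to -0.07 in the cKO arrays, and 23 of its 23 genes lay below 0 with 0 called. With that list mean as a covariate the Sirt1 change was 0.17, with an SE of 0.10 (limma adjusted p = 0.665). Its sign turned, but the change did not pass the threshold, so no direction was resolved. The part of these genes in the result was not tested otherwise. Hdac2, a class I deacetylase gene, read 10.16, 10.09, 10.03 and 10.00 in cKO and 9.90, 9.88, 9.92 and 10.05 in WT. WT replicate 4 again lay within the cKO range (log2 change 0.13, SE 0.05, 95% interval 0.02 to 0.25, limma adjusted p = 0.278). With the proliferation list mean as a covariate the Hdac2 change was 0.14, with an SE of 0.04 (limma adjusted p = 0.0637, and over all alternatives 0.0637 to 0.860). Its paralog Hdac1 read 9.06, 9.05, 9.08 and 9.05 in cKO and 8.96, 8.92, 8.99 and 9.21 in WT (log2 change 0.04, 95% interval -0.11 to 0.18, limma adjusted p = 0.906).

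Further genes of the same systems were described by their counts, beside 2.76% called over all genes. Of 17 other DNA methylation genes measured, 1 rose and none fell. The gene that rose was Zbtb38, which encodes a zinc finger protein that binds methylated CpG. It read 9.59, 9.57, 9.57 and 9.64 in the cKO arrays and 9.02, 9.29, 9.02 and 9.11 in the WT arrays, with no overlap, and was 1.39-fold higher in cKO (log2 change 0.48, SE 0.06, limma adjusted p = 0.00286). None was called among 19 other Polycomb genes, 16 other demethylases, 25 other methyltransferases, 23 other deacetylase and corepressor genes, and 16 genes of H3K9 methylation and its readers. The list medians lay between -0.020 and 0.030. The Polycomb genes with the lowest p were Bcor, a corepressor of variant PRC1 (log2 change -0.21, limma adjusted p = 0.435), and Aebp2, a PRC2 subunit gene (-0.09, limma adjusted p = 0.515). Smyd2, a lysine methyltransferase gene, missed the threshold narrowly, at 8.47 ± 0.11 in cKO and 8.75 ± 0.05 in WT (SD, n = 4; limma adjusted p = 0.051), followed by the H3K4 methyltransferase gene Kmt2b (-0.16, limma adjusted p = 0.215). The demethylase relative Jmjd1c had means of 7.78 ± 0.28 (cKO) and 8.26 ± 0.33 (WT), limma adjusted p = 0.217, and Kdm8 changed by 0.11 (limma adjusted p = 0.315). The mitochondrial deacetylase gene Sirt3 changed by 0.18 and Hdac7 by 0.14 (limma adjusted p = 0.139 and 0.238). Among the H3K9 genes the lowest p were those of Prdm16 (0.47, limma adjusted p = 0.149) and Morc2a, whose product works with the HUSH silencing complex (-0.10, limma adjusted p = 0.648). The H3K9 methyltransferase genes Setdb1, Setdb2 and Suv39h2 changed by -0.07, 0.0040 and -0.02.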

How the data were processed

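Expression was measured on 1 array per animal, 4 G9a cKO and 4 G9a WT. The authors deposited log2 values, 1 for each probe set and array. RMA, which corrects background, normalizes arrays and summarises probes, produced them per the submitters' processing notes, with no version named there. Per the labels' protocols, 25 ng of total RNA were amplified with 17 cycles, which can alter ratios between transcripts. Of the probe sets, 28898 had 1 gene symbol in the platform annotation, 551 several and 15692 none here; 28689 were found in the RefSeq table of GRCm38.p6, with 0 symbols changed.

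Each of 17097 genes was represented by its brightest probe set on average. For Ehmt2 that was the probe set that did not separate the groups, and the 9.27-fold lower one did not enter the fit over genes. A change seen by a dimmer probe set alone can be missed in this way. In the fit over all probe sets, 0 of the 70 probe sets of the 37 genes were called. The two-sided test was limma 3.58.1 (R 4.3.3), by lmFit and then eBayes with a trend, and used no covariate or filter. Adjusted p-values are Benjamini-Hochberg values over all genes, or over all probe sets where said, with a threshold of 0.05. Because the titles name 1 animal for each array, the p-values reflect differences among animals. The fit was tested on simulated data. Correlations used exact permutation tests over the arrays (Python 3.11.15). Figures were drawn with matplotlib 3.10.9.

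The genes and lists were chosen with earlier results of these data known. Array values are given for the 3 genes of lowest p in each role group (all in groups of 4 or fewer), for genes past the threshold, and for Ezh2, which was added after its values were seen. In further lists, genes past the threshold or the 2 of lowest p are named; Setdb1, Setdb2, Suv39h2 and the markers were added. The alternatives are those named in the closing section. The number of arrays limits the precision.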

Additional observations from a re-analysis of the deposited data

Results flagged for a closer look

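In cKO replicate 1, Kdm4c read 6.17, apart from the other cKO arrays at 6.33 to 6.36. Its gap to the nearest of them was 0.853 of the range of the group, above Dixon's critical value for 4 samples. This was the 1 gap of that size among 74 groups of 4 arrays (37 genes in 2 genotypes), where chance alone gives about 1 in 20.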

How the results depend on the processing

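The number of the 37 genes past the threshold stayed at 0 in both directions in most alternatives. It was 1 higher (Cbx7) with eBayes without trend and at an adjusted p under 0.10, and 0 to 1 lower (Sirt1, without WT replicate 4) when 1 array was left out. Of 627 values of single genes under alternatives, 2 became called and 5 turned the direction of a change that exceeded its standard error. Among the 620 others, 45 changed sign from a change no larger than its standard error. All 5 turns came with the immediate early list mean as a covariate, none past the threshold. The changes were then 0.014 for Dnmt3b (SE 0.08), 0.047 for Kdm2a (SE 0.17), 0.013 for Kdm3a (SE 0.07), 0.010 for Setd2 (SE 0.06) and 0.17 for Sirt1 (SE 0.10). All but the Sirt1 change were smaller than their standard errors. The Sirt1 change exceeded its standard error but did not pass the threshold, so none of the 5 had a resolved direction. The list mean differs between the genotypes, which limits what this fit can resolve. The cause was not tested. Over all genes, 329 higher and 143 lower became 191 and 77 with the replicate number as a block, 48 and 22 with the immediate early covariate, 159 and 44 at 0.01, and 497 and 247 at 0.10; the cause was not tested for the first pair. Genes called lower numbered 249 with array weights and 235 with the proliferation covariate, and the cause was not tested. Leaving out each array gave 190 to 502 higher and 67 to 294 lower. Arrays of the same replicate number did not deviate together (correlations across genes from -0.53 to 0.03, and 0 of 4 arrays closest to their own number), so the numbers were not taken to pair animals, and the replicate block called 0 of the 37 genes. The median of the 37 genes moved by less than the spread between arrays under renewed quantile normalization, arrays shifted to a common median, without the dimmest 40% of genes and with the mean of all probe sets. Depth does not apply to arrays. Signal near background limits Dnmt3b and Kdm4a, and Phc1 also read below every array median.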

Other observations

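A further list held 20 measured genes that Polycomb, DNA methylation or H3K9 methylation are known to keep silent in many adult tissues. Of these, 1 fell in cKO and none rose, beside 2.76% of all genes called. Below 0 lay 15 of the 20, beside 48.5% of all genes, and the median log2 change was -0.03, beside 0.0027 for all genes. The gene that fell was Gata6, a zinc finger transcription factor gene, which read 6.35, 6.42, 6.34 and 6.44 in cKO and 6.77, 6.95, 6.81 and 6.62 in WT and was 1.32-fold lower (limma adjusted p = 0.0154). Most of the list was dim: 2 of 20 genes read above the array median on all 8 arrays. Gata6 was 1 of these 2, so the called gene was not among the dim ones.

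The neighbouring cell cycle inhibitor genes Cdkn2a and Cdkn2b, classic Polycomb targets, read slightly higher in cKO. Cdkn2a read 4.29 ± 0.04 in cKO and 4.14 ± 0.08 in WT (SD, n = 4; limma adjusted p = 0.122) and Cdkn2b 5.17 ± 0.10 and 4.96 ± 0.10 (limma adjusted p = 0.159). Cdkn2a lay near the bottom of the scale, neither gene passed the threshold, and both were chosen after their values were seen.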
